A study of Mus musculus with 9 samples.

Results

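The 9 genes described here encode the AMPA receptor subunits (Gria1, Gria2, Gria3 and Gria4) and the kainate receptor subunits (Grik1, Grik2, Grik3, Grik4 and Grik5) of the mouse. They were taken as every probe set whose annotation names 1 of these genes and no other, which gave 18 probe sets of the 45037 that are no controls, and 9 of the 18193 genes with a probe set of their own. No probe set of these genes named a second gene, and all 9 genes were measured. The arrays hold RNA of motor neurons cut by laser from cresyl violet-stained frozen sections of untreated male wild-type C57BL/6J mice at postnatal day 7. The 3 pools were lumbar motor neurons of the L5 level (L5), motor neurons of the oculomotor nucleus in the midbrain (OMN) and motor neurons of the dorsolateral nucleus at the L6 level (DL). The study title places them as motor pools that differ in vulnerability in ALS, a disease in which motor neurons die. Each pool had 3 arrays, with about 200 neurons per pool from each of 3 animals per the labels, and no pool carried a mutation or received a treatment.

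AMPA receptors are glutamate-gated channels built from 4 subunits and carry most fast excitatory transmission onto motor neurons. The product of Gria2, once its transcript has been edited at the Q/R site by the enzyme that Adarb1 encodes, keeps calcium out of the channel, so that receptors without it let calcium in. For this reason the Gria2 level relative to the other AMPA subunits is often used as a guide to calcium permeability in motor neurons, a cell type known for its sensitivity to AMPA receptor agonists. Kainate receptors are related channels: the products of Grik1, Grik2 and Grik3 form channels by themselves, whereas those of Grik4 and Grik5 need a partner from that group and raise its affinity for agonist.

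The promoter of Gria2 is known for a binding element of the repressor REST, called RE1, and it is shown because Gria2 is the subunit on which the share below rests. RefSeq promoter windows of 250 bases before to 50 bases after the start (assembly GRCm38.p6) were at hand for 6 of the 9 genes. The core letters (AGCACC, any 2 bases, then GGACAG and CGC without a gap), searched on both strands, were in the window of Gria2 and not in those of Gria4, Grik2, Grik3, Grik4 and Grik5; of all 32851 windows 4 held them, 0.0122%. The 30 bases around the match lie at chr3:80802985-80803014 upstream of the minus-strand gene Gria2, and the first base of the match is 173 bases before the start. They are printed along the gene's strand, with capitals for the core, which reads on the opposite strand.
Gria2: accaaaGCGCTGTCCGCGGTGCTaaaatcg
The match is a description of these letters only.

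Values below are intensities as deposited, on a linear scale that the authors set to 1 common mean per array. The noise level was set at 18.3, the top reading of the 27 bacterial control probe sets on any array. Probe sets differ in response, so that each is compared with itself between pools. The ratios within arrays and the share of Gria2 given below do combine different probe sets, and they too are compared between pools alone. Where a gene has several they are called the brightest, the second and the third by their mean over all arrays. Differences are on the scale log2(intensity + 16) with the standard error (SE) of a limma fit over all 9 arrays, and a gene is called where its p, adjusted by Benjamini-Hochberg over all genes of a comparison, is under 0.05. As the comparisons share arrays, they are not independent of one another. The p-values measure the spread between these arrays, 3 a pool, and that number limits the precision.

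Several facts of the arrays bear on the values. The transporters of acetylcholine and choline that mark motor neurons, Slc18a3 and Slc5a7, lay far above the noise level on every array (773.8 to 3574 and 2864 to 4979). The probe set of Chat, by contrast, lay at 1.2 to 24.5 and above the noise level on 4 of 9 arrays, so that this defining marker was near noise here. The summed intensity of 8 motor neuron markers was highest in L5, where it ran from 25838 to 25974, against 18589 to 19339 for the OMN arrays and 18707 to 23052 for those of DL, and single markers differed between pools. Isl1, a transcription factor of motor neurons, was called lower in L5 (mean 598) than in OMN (2129) and DL (2717), and Prph, a neuronal filament protein, was called higher in L5 (10257) than in OMN (4844). Mnx1, a further such factor, lay below the noise level on all OMN arrays (0.9 to 3.0) and was called lower there than in L5 (mean 128) and DL (94.5). Isl2 was at 4.6 to 20.7 in OMN, called lower than in DL (96.2). Markers of other cells were present in all pools. The summed intensity of 8 oligodendrocyte markers was 22573 to 24719 in DL against 15719 to 16761 in L5 and 12476 to 14233 in OMN, and that of 4 inhibitory interneuron markers was 5017 to 5875 in DL against 1628 to 2232 and 1852 to 2674. For 9 astrocyte markers the L5 sums were 15288 to 16505, those of OMN 12331 to 12962 and those of DL 13491 to 15649. Among them Gfap, the filament protein of astrocytes, was highest in DL and called in all 3 pairs of pools (means 325 in L5, 18.0 in OMN and 1550 in DL). S100b went the other way between L5 and DL, called higher in L5, and the other 7 were not called there. Slc17a7, 1 of 2 excitatory interneuron markers, lay below the noise level on every array, and the sum of both followed Slc17a6 (L5 404 to 512, OMN 970 to 1220, DL 150 to 297). Gapdh signal at the 3' end relative to the 5' end, a measure of RNA length, was 3.27 and 3.75 on DL arrays 1 and 3 and 2.33 to 2.67 on the other arrays. In RNA of captured tissue, fewer cells of a type and less RNA per cell cannot be told apart.

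Among the 9 subunit genes, each by its brightest probe set, 2 differed between pools. Grik1 was highest in DL and Gria3 was lowest there. For L5 against OMN none of the 9 was called, beside 2.17% of all genes, and 4 had an unadjusted p under 0.05, beside 15.9% of all genes. For L5 against DL 1 was called (Grik1, lower in L5), beside 2.55% of all genes, and 3 had an unadjusted p under 0.05 (18.9% of all genes). For DL against OMN 2 were called (Grik1, higher in DL, and Gria3, lower in DL), beside 3.02% of all genes, and 4 had an unadjusted p under 0.05 (16% of all genes). L5 set against the mean of both other pools gave 1 call, Grik1, beside 2.13% of all genes, and 2 had an unadjusted p under 0.05 (18.3% of all genes). Over single probe sets, adjusted over all of them, L5 against OMN had 1 call among the 18 (1.03% of all probe sets), L5 against DL had 1 (1.37%), DL against OMN had 2 (1.92%) and L5 against the mean of both other pools had 1 (0.968%). Pool ranges did not overlap for 6 of 9 genes between L5 and OMN (27.4% of all genes), for 4 between L5 and DL (23.5%) and for 4 between DL and OMN (21.1%).

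**Figure D1:**
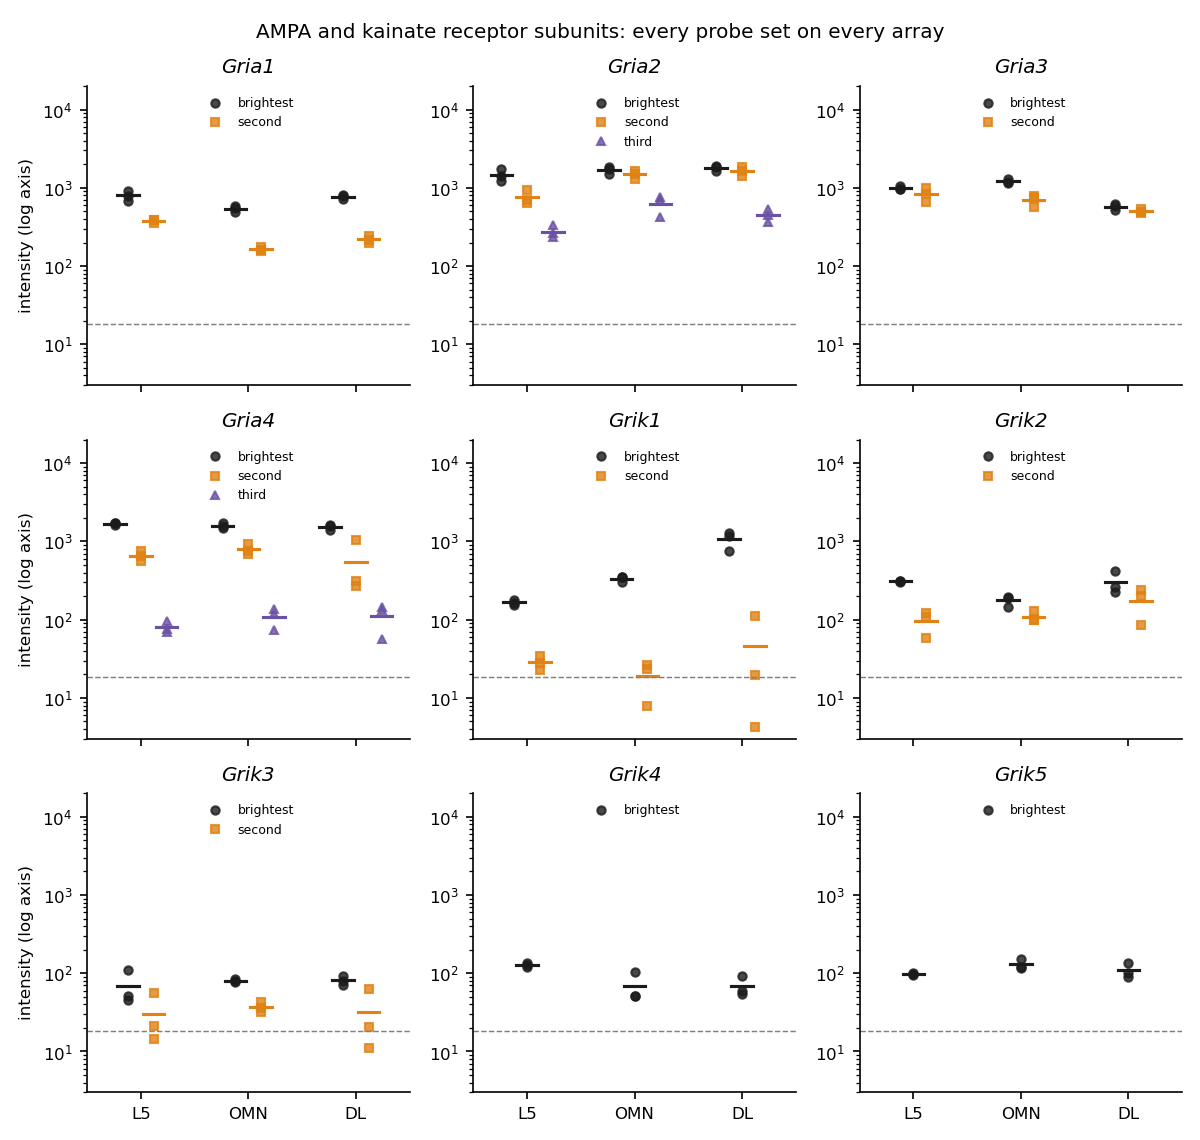
Intensity (log axis) of every probe set of the 9 subunit genes on each of the 9 arrays, by pool; points are arrays, short lines are means of 3 arrays and the dashed line is the noise level of 18.3. Grik1 climbs from L5 through OMN to DL by its brighter probe set, Gria3 is lowest in DL, and all 3 Gria2 probe sets have their lowest mean in L5, 2 of them with no L5 array as high as any other.

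Gria1, whose product is a subunit trafficked to synapses during plasticity, was measured by 2 probe sets, and both had their lowest values in OMN. By the brighter the L5 arrays read 795.8, 919.8 and 678.3, the OMN arrays 494.4, 581.6 and 556.5, and the DL arrays 816, 719.8 and 780. Every L5 and DL array lay above every OMN array, while L5 and DL overlapped. The difference of L5 from OMN was 0.53 ± 0.20 (SE; adjusted p = 0.253) and that of DL from OMN 0.49 ± 0.20 (adjusted p = 0.28), neither called. By the second, L5 read 350.6, 391.8 and 393.2, OMN 173.8, 161.5 and 156.5, and DL 244.4, 217.1 and 196.3. The 3 pools did not overlap, with L5 highest and OMN lowest. L5 was 2.31-fold above OMN (log2 difference 1.13 ± 0.19 SE, adjusted p = 0.0449 over all probe sets), which was called, and its difference from DL was 0.75 ± 0.19 (adjusted p = 0.109). The call of this probe set was lost without any 1 of the 9 arrays, with adjusted p up to 0.205; the difference from DL was called with a pseudocount of 64 (adjusted p = 0.0322) and without the replicate block (adjusted p = 0.0477).

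Gria2 encodes the subunit that sets calcium permeability, and its 3 probe sets gave different pictures. The brightest read 1759.9, 1413.1 and 1233.5 in L5, 1858.4, 1483.2 and 1762.3 in OMN, and 1849.9, 1657.6 and 1909.1 in DL. Means were 1469 ± 268, 1701 ± 195 and 1806 ± 132 (SD, n = 3 each), and all pools overlapped. The differences were -0.22 ± 0.19 for L5 against OMN (adjusted p = 0.649), -0.31 ± 0.19 for L5 against DL (adjusted p = 0.453) and 0.09 ± 0.19 for DL against OMN (adjusted p = 0.889).

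The other Gria2 probe sets were lower in every L5 array than in any array of the other pools. On the second L5 read 707.2, 640.7 and 941.5, OMN 1512.8, 1658.5 and 1308, and DL 1845.5, 1433.6 and 1651.5. OMN was 1.96-fold and DL 2.15-fold above L5. Over all probe sets neither passed the threshold: the log2 difference of L5 was -0.97 ± 0.23 from OMN (adjusted p = 0.126) and -1.10 ± 0.23 from DL (adjusted p = 0.0731). On the third L5 read 330.3, 265.4 and 233, OMN 702.9, 763.8 and 419.2, and DL 451, 534.3 and 365.7. The difference of L5 from OMN was -1.11 ± 0.21 (adjusted p = 0.0662) and from DL -0.67 ± 0.21 (adjusted p = 0.178). Other settings changed some of these calls. The second probe set was called lower in L5 than in DL without the replicate block (adjusted p = 0.0279), with arrays centred on their medians (adjusted p = 0.0442), with a pseudocount of 64 (adjusted p = 0.0393) and with trend and robust variances (adjusted p = 0.00537), and lower in L5 than in OMN with the last of these (adjusted p = 0.0143). The third was called lower in L5 than in OMN with that setting (adjusted p = 0.0248), with array weights (adjusted p = 0.0439) and with a pseudocount of 64 (adjusted p = 0.0336). With the mean of all 3 probe sets in place of the brightest, Gria2 was called lower in L5 than in the mean of OMN and DL (-0.73 ± 0.14, adjusted p = 0.0421), so that this call changes with the choice of probe set.

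Because probe sets of 1 gene disagreed, the ratio of each further probe set to the brightest was taken within each array, where a scaling of the array cancels. For Gria2, the third probe set over the brightest was 0.188 in L5 on average (0.188 to 0.189), 0.377 ± 0.139 in OMN and 0.253 ± 0.0658 in DL (SD, n = 3 each). All 3 L5 ratios were below all 6 others. For the second Gria2 probe set the ratio was 0.540 ± 0.196 in L5, 0.892 ± 0.200 in OMN and 0.909 ± 0.0766 in DL. For Gria1 the ratio of the second to the brightest was 0.482 ± 0.0849 in L5, 0.304 ± 0.0417 in OMN and 0.284 ± 0.0283 in DL. These ratios were looked at because the probe sets disagreed, and they are given without a test. The annotation used here does not say which part of the transcript each probe set reads.

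Gria3 was highest in OMN and lowest in DL by its brighter probe set. There L5 read 1067.4, 972.6 and 968.4, OMN 1147.9, 1179.1 and 1315.4, and DL 583, 621.1 and 522.2. The 3 pools did not overlap. OMN was 2.11-fold above DL (log2 difference of DL -1.06 ± 0.19, adjusted p = 0.0314), which was called. The step from L5 to DL, 1.74-fold, was 0.79 ± 0.19 (adjusted p = 0.0783); it was called without the replicate block (adjusted p = 0.0300), with a pseudocount of 64 (adjusted p = 0.0251) and with trend and robust variances (adjusted p = 0.0233). L5 and OMN differed by -0.27 ± 0.19 (adjusted p = 0.538). The second probe set read 843, 990.3 and 665.5 in L5, 779.1, 749.5 and 567.2 in OMN, and 482, 487.5 and 535.4 in DL. DL was again below every other array, with a difference from OMN of -0.45 ± 0.21 (adjusted p = 0.391) and L5 and OMN overlapping. The call of Gria3 between DL and OMN did not survive the loss of any 1 array (adjusted p up to 0.151), a pseudocount of 1 (adjusted p = 0.103), centring on array medians (adjusted p = 0.0611), a fit of only DL and OMN (adjusted p = 0.145) or the Gapdh covariate (adjusted p = 0.147). On DL array 2, whose Gapdh ratio was within the range of the other pools, Gria3 read 621.1, below every L5 and OMN array. With this DL array alone, a choice made after seeing the data, the difference was -0.91 ± 0.30 and was not called. Whether RNA length had a part was not tested.

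Gria4, whose product forms AMPA receptors with fast kinetics, differed by at most 0.13 on the log2 scale between pools by its brightest probe set. There L5 read 1727.4, 1702.5 and 1643.6, OMN 1706, 1570.5 and 1490.4, and DL 1634.4, 1400.4 and 1593.4. Differences were 0.09 ± 0.18 for L5 against OMN (adjusted p = 0.856), 0.13 ± 0.18 for L5 against DL (adjusted p = 0.747) and -0.04 ± 0.18 for DL against OMN (adjusted p = 0.948). All L5 arrays were above the DL arrays, and OMN overlapped both. The 2 dimmer probe sets varied most in DL, where the second read 267.5, 1048.4 and 309.5 and the third read 133.1, 145.7 and 57.1, and neither was called in any comparison.

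The share of Gria2 in the summed intensity of Gria1 to Gria4 was lowest in L5 and, by the brightest probe set of each gene, highest in DL. It was 29.5% ± 3.01 in L5 (27.3 to 32.9%), 33.6% ± 2.53 in OMN (30.8 to 35.7%) and 38.4% ± 1.13 in DL (37.7 to 39.7%; SD, n = 3 each). L5 and OMN overlapped, and DL lay above both. By these probe sets Gria2 itself overlapped between OMN and DL (means 1701 and 1806). Of the other genes in the sum, Gria3 was lower in DL (1214 and 575), Gria1 was higher there (544 and 772) and Gria4 was similar (1589 and 1543). A higher share in DL is thus not by itself a higher level of Gria2. With Gria2 read by its second probe set the shares were 17.9% ± 3.79, 30.8% ± 2.63 and 36.2% ± 1.75, and with the third they were 7.30% ± 0.979, 15.7% ± 4.05 and 13.5% ± 2.59. With the geometric mean of all probe sets of each gene they were 26.1% ± 2.33, 40.1% ± 1.98 and 44.4% ± 2.75. In each of these 4 versions every L5 array lay below every DL array, and in the last 3 also below every OMN array. OMN and DL changed order between versions. Since probe sets respond differently, none of these is a share of transcripts, and the size of the gap between pools, from 4.17 percentage points between L5 and OMN by the brightest probe sets to 14.0 by the geometric means and from 6.19 to 18.4 between L5 and DL over the 4 versions, depends on the probe sets taken. A share over chosen members is given without a test. DL also had the higher oligodendrocyte and inhibitory interneuron marker sums, and raised Gapdh ratios on arrays 1 and 3. Their part in the Gria2 levels and the share was not tested.

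**Figure D2:**
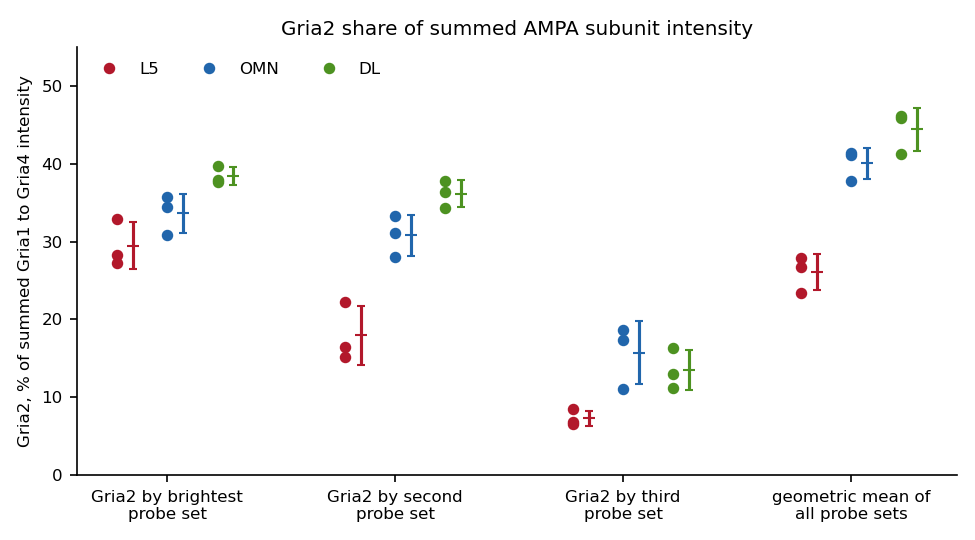
Gria2 as a percentage of the summed intensity of Gria1, Gria2, Gria3 and Gria4 on each array, with Gria2 read by each of its 3 probe sets or all genes by the geometric mean of their probe sets; points are arrays, bars are mean ± SD of 3 arrays. The 3 L5 points lie below the 3 DL points in every version and overlap OMN only where Gria2 is read by its brightest probe set.

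Among kainate receptor subunits, Grik1 showed the widest spread between pools. Its product forms channels alone or with other kainate subunits. On its brighter probe set L5 read 180.5, 154.6 and 164.3, OMN 302.8, 351.7 and 350.4, and DL 1160.5, 1283.4 and 756.2. The pools did not overlap, and their order was L5, OMN, DL. DL was 6.41-fold above L5 (log2 difference of L5 -2.54 ± 0.23, adjusted p = 0.00493) and 3.18-fold above OMN (1.59 ± 0.23, adjusted p = 0.0153), both called. OMN was 2.01-fold above L5, a difference that was not called (-0.94 ± 0.23, adjusted p = 0.109) except with array weights (adjusted p = 0.0467). The lower level in L5 than in DL held without each of the 9 arrays in turn (-2.78 to -2.38, adjusted p up to 0.0492). It was lost with the mean of both probe sets (-1.29 ± 0.28, adjusted p = 0.0605) and where only the arrays of L5 and DL were fitted (adjusted p = 0.0545). Adjusted over all probe sets, it held in 5 of the 9 fits without 1 array (adjusted p up to 0.078). The call between DL and OMN held in 4 of those 9 fits (1.44 to 1.83, adjusted p up to 0.092) and was lost with the mean of both probe sets (adjusted p = 0.119), a pseudocount of 1 (adjusted p = 0.0633) and only the arrays of DL and OMN fitted (adjusted p = 0.105).

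DL was also the pool with the highest sums of oligodendrocyte and inhibitory interneuron markers given above. Gfap was highest there too, while the sums of all astrocyte markers in DL overlapped those of L5. The part of these markers in the Grik1 result was not tested. Slc6a5, the neuronal glycine transporter, was 551 ± 90.2 in L5, 22.6 ± 14.8 in OMN and 707 ± 248 in DL. Gad2, an enzyme of GABA synthesis, was 269 ± 18.4, 1312 ± 120 and 2340 ± 340. Gad2 had the order of Grik1 and Slc6a5 did not. Of the other inhibitory interneuron markers, Gad1 was called lower in L5 than in OMN and in DL, and Slc32a1 was called higher in DL than in OMN. On DL array 2, without the raised Gapdh ratio, Grik1 read 1283.4. With that array as the only one of DL, a choice made after seeing the data, Grik1 differed by -2.85 ± 0.31 between L5 and DL. Between DL and OMN it differed by 1.90 ± 0.31, and neither difference was called. Whether RNA length had a part was not tested. The other Grik1 probe set lay near the noise level, at 28.2, 34.6 and 22.5 in L5, 23.4, 26.1 and 8 in OMN and 112.7, 4.2 and 19.6 in DL, and it gave no order.

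Grik2, which encodes a principal pore-forming subunit of neuronal kainate receptors, was lowest in OMN by its brighter probe set without being called. There L5 read 311.4, 311.3 and 300.2, OMN 191.3, 192.5 and 144.6, and DL 418.5, 264.4 and 226. Every OMN array lay below every other array. The differences from OMN were 0.76 ± 0.22 for L5 (adjusted p = 0.153) and 0.70 ± 0.22 for DL (adjusted p = 0.172). On the dimmer probe set L5 read 59.1, 123.2 and 109.6, OMN 127.4, 97.8 and 100.4, and DL 238, 84.3 and 201.7, and this order was not seen.

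Grik3, the remaining subunit that forms channels alone, showed no separation of pools. On the brighter probe set L5 read 46.1, 51.6 and 109.1, OMN 79.3, 76.2 and 85.6, and DL 79.9, 71.3 and 92.3. The dimmer one ranged from 11.2 to 63.6 and crossed the noise level. Adjusted p for the brighter probe set was 0.661, 0.606 and 0.994 for L5 against OMN, L5 against DL and DL against OMN.

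The high-affinity subunits had 1 probe set each. Grik4 read 135.1, 128 and 118.6 in L5, 50.9, 102.9 and 51.6 in OMN, and 59, 91.5 and 54.1 in DL. All L5 arrays were above all others, and OMN and DL overlapped. L5 differed from OMN by 0.82 ± 0.22 (adjusted p = 0.138) and from DL by 0.79 ± 0.22 (adjusted p = 0.122), neither called. Grik5 read 99.6, 95.5 and 98.3 in L5, 152.8, 115.5 and 121.3 in OMN, and 90.1, 101.3 and 136.1 in DL. L5 lay below OMN on every array (-0.35 ± 0.21, adjusted p = 0.481), and DL overlapped both.

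**Figure D3:**
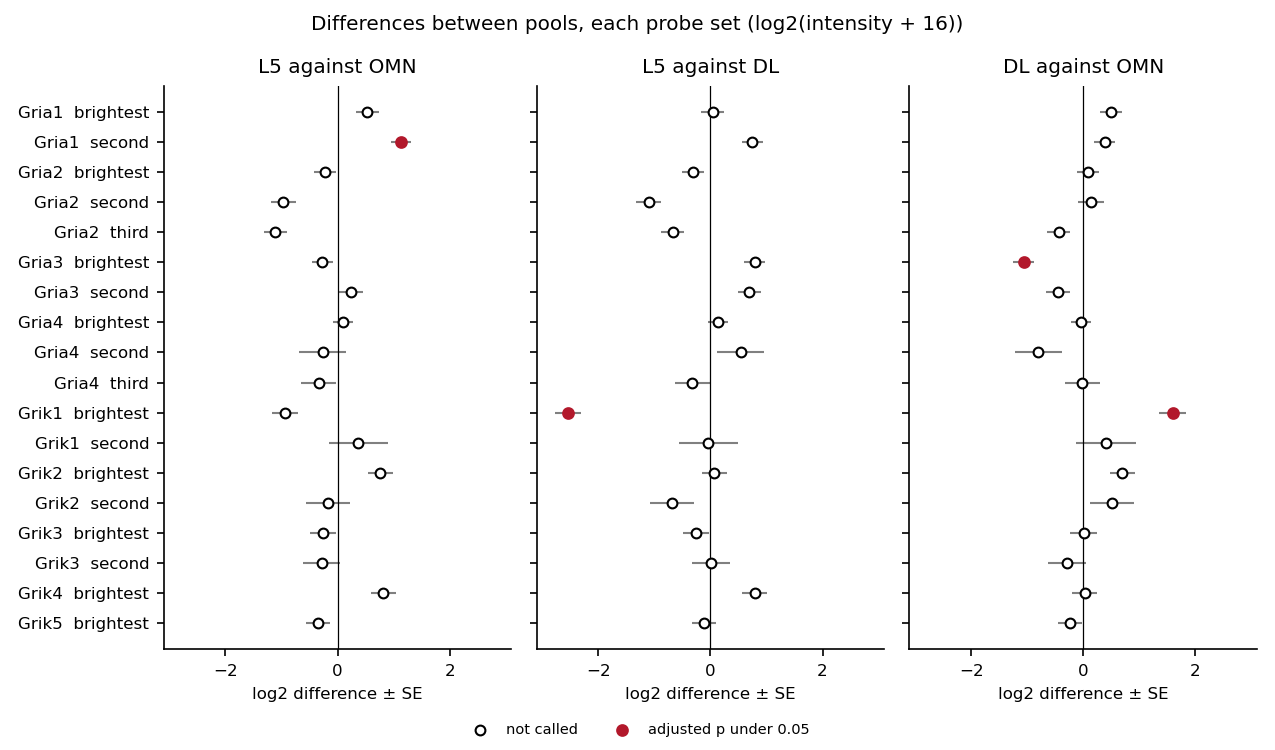
Log2 difference (intensity + 16) with its SE for each of the 18 probe sets in the 3 comparisons between pools; filled points have an adjusted p under 0.05 over all 45037 probe sets. The called points are the second Gria1 probe set between L5 and OMN, the brightest of Grik1 between L5 and DL and between DL and OMN, and the brightest of Gria3 between DL and OMN.

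The genes with levels most like those of the called subunits over the 9 arrays were found by Pearson correlation of log2 values among 10329 genes with a mean over 50, as a description. For Gria3 they were Dbt (r = 0.983), Tenm2 (r = 0.983) and Esrrg (r = 0.982), each highest in OMN and lowest in DL. Tenm2, a teneurin adhesion protein, had means of 1100, 1553 and 291 in L5, OMN and DL. For Grik1 they were Yars2 (r = 0.985), Rtn4rl1 (r = 0.980) and Lrrc3 (r = 0.979). Rtn4rl1, which encodes a homologue of the Nogo receptor, had means of 94.9, 232 and 932. The points of these correlations share arrays and fall by pool.

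Proteins that AMPA receptors work with were taken by role. Auxiliary subunits bind the pore subunits and set their gating and trafficking. Of 14 measured, 1 rose in L5 against OMN (Cacng5), 2 rose in L5 against DL (Syndig1 and Cacng2) and 1 fell in DL against OMN (Syndig1). An unadjusted p under 0.05 was reached by 7, 9 and 5. Of all genes 2.17%, 2.55% and 3.02% were called in these comparisons, and 15.9%, 18.9% and 16% had an unadjusted p under 0.05. These shares also stand beside the counts of the partner lists that follow. The median difference over the 14 was 0.11, 0.84 and -0.54, beside 0.01, 0.06 and -0.04 over all genes. Cacng2, which encodes stargazin, the founding member of the family, read 2175, 2438.6 and 2049.9 in L5, 1578.5, 1455.5 and 1273.4 in OMN, and 862, 1283.4 and 1064 in DL. L5 lay above both other pools on every array; the difference from DL, 1.06 ± 0.20, was called (adjusted p = 0.0481) but not without any 1 array (adjusted p up to 0.172).

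Cacng5, a further member of the stargazin family, read 1187.1, 1473.5 and 1290.3 in L5, 235.4, 284.2 and 345.2 in OMN, and 606.3, 1099 and 372.7 in DL. The 3 pools did not overlap, although DL was widely spread. L5 was 2.14 ± 0.33 above OMN on the log2 scale (adjusted p = 0.0262), a call kept in 3 of 9 fits without 1 array (adjusted p up to 0.137). Syndig1, which encodes a synapse differentiation protein that binds AMPA receptors, read 295.6, 374.8 and 229.5 in L5, 154.3, 196.7 and 194.1 in OMN, and 38.8, 57.1 and 43.4 in DL. Each DL array was far below all others: L5 was 2.32 ± 0.21 above DL (adjusted p = 0.00493, called in all 9 fits without 1 array) and DL was -1.67 ± 0.21 from OMN (adjusted p = 0.0082, called in 8 of the 9, with the highest adjusted p 0.0543).

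Assembly factors of the endoplasmic reticulum, 6 of 6 measured, had 1 call, Porcn, whose product binds AMPA receptor complexes and is also the acyltransferase of Wnt proteins. Porcn read 368.2, 257.6 and 301.8 in L5, 398.9, 215.9 and 265.1 in OMN, and 154.3, 104.7 and 108.1 in DL. DL was below every other array, by 1.24 ± 0.18 from L5 (adjusted p = 0.0208, kept in 2 of 9 fits without 1 array, adjusted p up to 0.11) and, as DL minus OMN, -1.14 (adjusted p = 0.0225, kept in 1 of 9, up to 0.12). Scaffold and trafficking proteins such as Grip1, Pick1, Nsf and Dlg4, which hold or move receptors at synapses, had 0 calls among 15 in each of the 3 limma comparisons. At an unadjusted p under 0.05 there were 3, 3 and 4 (15.9%, 18.9% and 16% of all genes), and medians were -0.02, 0.08 and -0.10.

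Extracellular partners cluster AMPA receptors from outside the cell, and 10 of 11 listed were measured. Nptx1, a neuronal pentraxin, read 360.7, 449.9 and 324 in L5, 77.9, 90.1 and 65 in OMN, and 158.5, 215.9 and 203.1 in DL. The pools did not overlap. L5 was above OMN by 2.07 ± 0.19 (adjusted p = 0.00361), a call kept in all 20 alternative fits, and DL was above OMN by 1.15 (adjusted p = 0.0267), a call lost without any 1 array (adjusted p up to 0.134). Nptx2, the activity-regulated pentraxin, ran otherwise: it read 1.6, 51.3 and 65.5 in L5, 195.7, 369.5 and 157.8 in OMN, and 755.2, 397.1 and 506.6 in DL. L5 was lowest on every array, with a difference from DL of -3.58 ± 0.58 (adjusted p = 0.0287), kept in 2 of 9 fits without 1 array (adjusted p up to 0.113); L5 array 1 lay below the noise level.

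Olfm3, an olfactomedin, was higher in DL than in OMN (means 1137 ± 80.6 and 475 ± 113, difference 1.25 ± 0.23, adjusted p = 0.0343), kept in 1 of 9 fits without 1 array (adjusted p up to 0.157). Lrrtm1, a leucine-rich synaptic adhesion protein, was higher in L5 than in OMN (384 ± 54.0 and 173 ± 44.4, difference 1.09 ± 0.20, adjusted p = 0.0452), a call lost without any 1 array (adjusted p up to 0.202). Neither of these pairs of pools overlapped.

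The 2 auxiliary subunits of kainate receptors, Neto1 and Neto2, which slow the channels and raise their surface level, were both highest in OMN. Neto1 read 681.6, 606.9 and 697.7 in L5, 1374.8, 1567.6 and 1616.9 in OMN, and 400.9, 293.4 and 331.6 in DL. The pools did not overlap, with DL lowest, which is not the order of Grik1. DL was below OMN by -2.11 ± 0.20 (adjusted p = 0.00288), kept in all 20 alternative fits, and L5 was below OMN by -1.18 ± 0.20 (adjusted p = 0.0321), kept in 2 of 9 fits without 1 array (adjusted p up to 0.158). Neto2 read 297.1, 617.4 and 287.9 in L5, 907.4, 935.9 and 775.9 in OMN, and 434.7, 214.4 and 376.6 in DL. Every OMN array was above all others, and the differences, -1.18 for L5 against OMN (adjusted p = 0.191) and -1.37 for DL against OMN (adjusted p = 0.123), were not called. Neto1 and Slc17a6, an excitatory interneuron marker that other neurons also use, shared the order OMN, L5, DL. The part of that marker in the result was not tested.

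Delta receptors are relatives of the AMPA and kainate receptors that bind cerebellins, and 5 of 6 genes listed were measured. DL against OMN had 2 called higher (Cbln4 and Cbln2) and 1 called lower (Cbln1), beside 3.02% of all genes called. L5 against DL had 1 called lower (Cbln4), beside 2.55%. L5 against OMN had 0 in the limma fit, beside 2.17%, and there the unadjusted p of 4 lay under 0.05 (15.9% of all genes). Cbln4 read 196, 211.4 and 205.6 in L5, 310.4, 462.9 and 345.1 in OMN, and 1459.7, 1268 and 1225.8 in DL. The order L5, OMN, DL held on every array; L5 was -2.59 ± 0.21 from DL (adjusted p = 0.00435, kept in all 20 alternative fits) and DL was 1.79 ± 0.21 above OMN (adjusted p = 0.00612). Cbln2 was 2232 ± 18.0 in DL against 309 ± 62.2 in OMN (2.81 ± 0.37, adjusted p = 0.0101, kept in 8 of 9 fits without 1 array, up to 0.0596). Cbln1 ran the other way, at 290 ± 188 in DL, 774 ± 106 in L5 and 1673 ± 152 in OMN; DL was -2.63 ± 0.36 from OMN (adjusted p = 0.0114, kept in 6 of 9, up to 0.0721).

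Editing enzymes act on Gria2 and kainate receptor transcripts, and 4 of 5 listed genes were measured. Adarb1, whose product edits the Q/R site of Gria2, read 528.2, 496.6 and 236.5 in L5, 645.7, 964.5 and 606.4 in OMN, and 168.6, 228 and 516.8 in DL. OMN was highest on every array, L5 and DL overlapped, and adjusted p was 0.444 for L5 against OMN, 0.616 for L5 against DL and 0.213 for DL against OMN. In 2 of 20 alternative fits Adarb1 was called lower in DL than in OMN. These were the mean of all probe sets and the fit without DL array 3 (limma adjusted p = 0.0278 in the latter). Adarb2, a family member without known editing activity, read 121.1, 172.5 and 114.3 in L5, 12.5, 14.7 and 1.8 in OMN, and 2.3, 13.6 and 7.1 in DL. It was below the noise level on all 6 arrays outside L5, and it was at least 7.30-fold higher in L5 than in each (geometric mean of L5 over the noise level; adjusted p = 0.00306 against OMN and 0.00493 against DL), with both calls kept in 19 of 20 alternative fits (adjusted p up to 0.0855 and 0.0761). The arrays measure transcript levels and not editing.

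The calls of partner genes that involve DL stand beside the higher oligodendrocyte and inhibitory interneuron marker sums and the higher Gfap of that pool. The astrocyte marker sums of DL overlapped those of L5. The part of these markers in the calls was not tested. With DL array 2 as the only array of DL, a choice made after seeing the data, Cbln1 differed by -2.885 between DL and OMN. Neto1 had a difference of -2.27 there and Cbln4 one of 1.56, neither called. Between L5 and DL in that fit, Syndig1 differed by 2.31 and Cbln4 by -2.36, neither called.

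**Figure D4:**
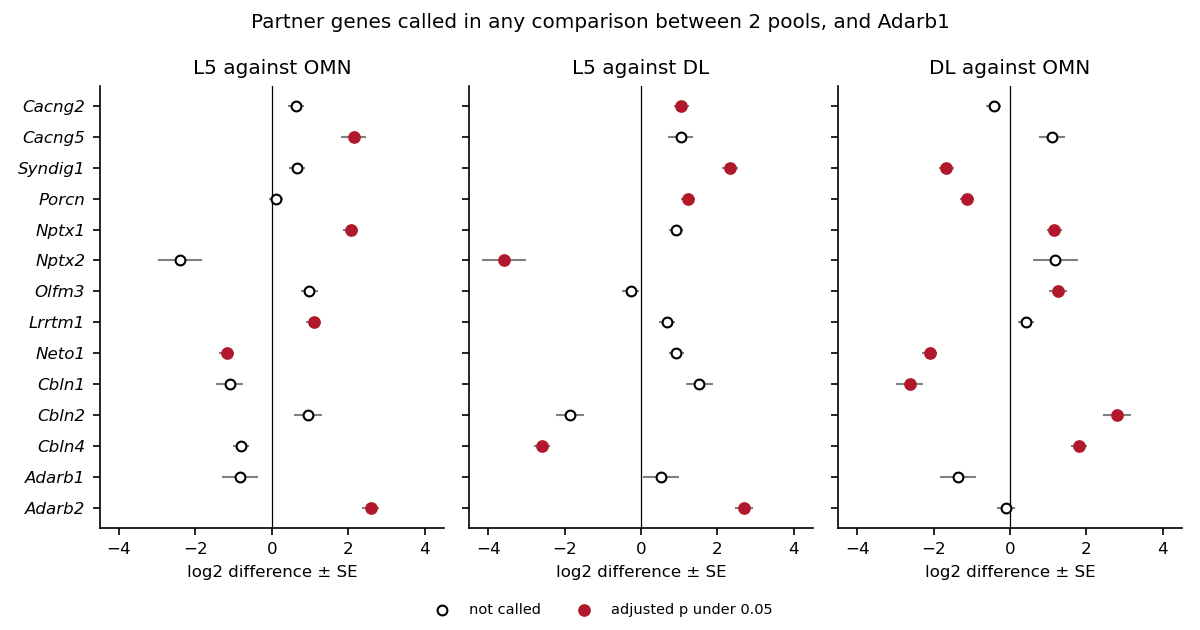
Log2 difference (intensity + 16) with its SE for the partner genes called in a comparison between 2 pools and for Adarb1; filled points have an adjusted p under 0.05 over 18193 genes. Neto1 and Cbln1 lie far to the left and Cbln2 and Cbln4 to the right in DL against OMN, and Adarb2 lies to the right in both comparisons of L5.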

How the data were processed

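Biotin-labelled material amplified from at least 1.5 ng of RNA was hybridised to Affymetrix Mouse Genome 430 2.0 arrays, per the labels. The authors deposited 1 table of processed intensities for 45101 probe sets on 9 arrays; the software that made them: not given in the sources used here. From the values, each array's mean after removal of 2% at each end was 250, so absolute RNA amounts are not retained. The 64 controls were left out. Of the others, 34945 named 1 gene, 932 several and 9160 none in the platform annotation.

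For each gene the probe set of highest mean intensity was taken; the pool and the replicate number (as a block) were fitted with limma 3.58.1 in R 4.3.3. Each animal gave all 3 pools per the labels, but none states that equal numbers mean 1 animal. Deviations of same-numbered arrays correlated at -0.020 to 0.030, and 4 of 9 arrays correlated best with their own number. The block was kept as designed. A second fit used every probe set.

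The members, the partner and marker lists and the tests were chosen with earlier results of these data known. All members were named, and every called partner up to 4 a comparison, Adarb1 and the 3 genes most correlated with each called member. Alternatives changed the pseudocount, scaling, probe set rule, noise filter, block, variance model, array weights, pools fitted, Gapdh covariate and arrays left out. Some listed genes are not reported here.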

Additional observations from a re-analysis of the deposited data

How the results depend on the processing

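Of 711 values of the subunits under alternative settings, 656 kept direction and side of the threshold, 28 lost a call, 6 gained one and 21 changed sign, 12 of them on leaving out an array; none of these 21 (-0.31 to 0.11) was called before or after. Counts below are in the order L5 against OMN, L5 against DL, DL against OMN and L5 against the mean of both, where the reference counts were 394, 464, 550 and 387 genes, 0, 1, 2 and 1 of the 9 subunit genes, and 1, 1, 2 and 1 of the 18 probe sets. Leaving out 1 array at a time gave 83 to 375, 55 to 259, 186 to 370 and 37 to 305 genes, 0 to 0, 1 to 1, 0 to 1 and 0 to 1 subunit genes, and 0 to 0, 0 to 1, 0 to 1 and 0 to 1 probe sets. A pseudocount of 1 gave 103, 61, 200 and 53 genes, 0 subunit genes in the last 2 comparisons and 0 probe sets in all 4. A pseudocount of 64 gave 602, 814 and 783 genes (the first, the second and the fourth comparison), 2 subunit genes for L5 against DL, and 2, 4 and 4 probe sets. Fitting without the replicate block gave 806 genes, 2 subunit genes (Grik1 and Gria3, the latter at adjusted p = 0.03) and 4 probe sets for L5 against DL, and 695 genes and 3 probe sets in the fourth comparison; it changed no other subunit gene's call. Variances with a trend and robust estimation gave 946, 1153, 880 and 1070 genes, 2 subunit genes for L5 against DL, and 3, 3 and 4 probe sets (the first, the second and the fourth). Array weights gave 676 genes, 1 subunit gene (Grik1) and 2 probe sets for L5 against OMN, and 2 probe sets in the fourth comparison. Fitting only the 2 pools compared gave 46 and 120 genes for L5 against DL and DL against OMN, with 0 subunit genes in both and 0 probe sets in all 3 comparisons. The Gapdh ratio as a covariate gave 89, 279 and 152 genes in the last 3, 1 subunit gene for DL against OMN (Grik1), and 0 probe sets in the first 3. Without DL arrays 1 and 3, a choice made after seeing the data that leaves 1 DL array assumed to vary like the others, there were 0, 128 and 95 genes in the last 3, 0 subunit genes in the second and the third, and 0 probe sets in the last 3. The mean of all probe sets gave 1, 0 and 1 subunit genes (Gria1, none, Gria3) in the first 3. In the fourth it gave 1, Gria2, and the call of Grik1 was lost there (-0.79, limma adjusted p = 0.155). Centring each array on its median gave 2 probe sets for L5 against DL and, for DL against OMN, 1 subunit gene (Grik1) and 1 probe set; it moved the median of all genes for DL against OMN from -0.04 to 0.11, and the share of higher calls from 50% to 39.6% for L5 against DL and from 45.3% to 60.7% for DL against OMN. Quantile normalization and a noise filter on at least 3 arrays each gave 2 probe sets in the fourth comparison. The share of Gria2 was 26.1%, 40.1% and 44.4% in L5, OMN and DL by geometric means, 17.9%, 30.8% and 36.2% with the second Gria2 probe set, and 7.30%, 15.7% and 13.5% with the third; without 1 array it was 27.7 to 30.6%, 32.6 to 35.0% and 37.8 to 38.8%. The cause of these changes was not tested. Signal near the noise level limits the dimmer probe sets of Grik1 and Grik3.

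Further differences, given here with those of single probe sets and partners, changed sign in the following settings, and none of them was called in either fit. A pseudocount of 1 gave 0.33 for the second Grik1 probe set, and one of 64 gave -0.0078 for the second of Grik3, both for L5 against DL. Quantile normalization gave -0.17 for the second of Grik3 (L5 against DL) and 0.017 for Adarb2 and 0.16 for the third of Gria4 (DL against OMN). Centring on medians gave, for L5 against DL, -0.044 for Gria1, -0.015 for Grik2, -0.16 for the second of Grik3 and, centred over all probe sets, -0.13, -0.10 and -0.035 for the brightest of Gria1, Grik2 and Gria4. For DL against OMN it gave 0.11 for Gria4, 0.045 for Adarb2 and, over all probe sets, 0.17 and 0.19 for the brightest and the third of Gria4. The mean of all probe sets gave -0.17 for Gria4 (L5 against OMN), -0.31 for Grik2 and 0.065 for Rest (L5 against DL), -0.071 for Gria2, -0.14 for Grik3 and -0.82 for Lrrtm1 (DL against OMN), and -0.027 for Gria4, -0.010 for Grik2 and 0.12 for Adarb1 (L5 against the mean of both). Array weights gave 0.017 for the third of Gria4 (DL against OMN). The Gapdh covariate gave -0.28, -0.37 and 0.79 for the second of Gria4, Grik3 and Grik1 (L5 against DL), 0.0098, 0.088 and -0.41 for the same and 0.40 for the third of Gria4 (DL against OMN), and 0.19 for Adarb1 and -0.27 for the second of Gria4 (L5 against the mean of both). Without DL arrays 1 and 3 the second probe sets of Gria4, Grik3, Grik1 and Grik2 gave -0.66, -0.53, 1.38 and 0.24 for L5 against DL and 0.39, 0.25, -1.01 and -0.42 for DL against OMN, where the second of Gria2 gave -0.016 and the third of Gria4 0.42. In the fourth comparison that setting gave 0.14 for Adarb1, -0.46 for the second of Gria4 and 0.031 for the second of Grik2.

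Leaving out 1 array at a time moved the following across 0. For L5 against OMN they were the second of Grik2 (-0.59 to 0.28), Grik3 (-0.70 to 0.016) and Gria4 (-0.71 to 0.030). For L5 against DL they were Gria1 (-0.087 to 0.16), Grik2 (-0.067 to 0.28), Grik5 (-0.29 to 0.047) and the second of Grik3 (-0.30 to 0.28) and Grik1 (-0.74 to 0.67). For DL against OMN they were Grik4 (-0.10 to 0.20), Grik3 (-0.15 to 0.10), Gria4 (-0.10 to 0.023), Adarb2 (-0.30 to 0.11), the third of Gria4 (-0.24 to 0.29) and the second of Grik3 (-0.71 to 0.023), Gria2 (-0.037 to 0.32) and Grik1 (-0.30 to 1.11). In the fourth comparison they were Cbln1 (-0.061 to 0.57), Adarb1 (-0.56 to 0.35) and the second of Gria4 (-0.086 to 0.43), Grik2 (-0.84 to 0.020), Grik1 (-0.18 to 0.60) and Grik3 (-0.35 to 0.031).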

Other observations

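Rest encodes the repressor that binds RE1 elements, and it was looked at after the match in the Gria2 promoter had been seen. Its brightest probe set of 4 read 79.7, 63.7 and 46.3 in L5, 156.9, 163 and 112.5 in OMN, and 120, 99.4 and 90.7 in DL. The pools did not overlap in L5 against OMN, where the difference was -1.02 ± 0.18 (limma adjusted p = 0.0402); the other 3 probe sets were dimmer. This call was lost without any 1 array (adjusted p up to 0.182), and averaging all 4 probe sets gave a difference of -0.15. No relation between Rest and Gria2 was tested.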
